A study of Rattus norvegicus with 12 samples.

Results

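The cilium and axoneme genes measured here were 88 probe sets of 68 genes, 0.283% of the 31042 probe sets on the rat array. A probe set was taken when the array annotation gave it 1 symbol, and that symbol was Foxj1 or began with Dnah, Dnai, Dnal, Tekt, Rsph, Cfap, Spag, Bbs or Ift and then a digit. The Ifit genes, which answer to interferon and have no role in cilia, were left out. A gene with several probe sets (15 of the 68) is counted once per probe set, so its probe sets are not independent. A further 2 probe sets that carried several symbols (Dnal4 among them) were not counted.

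Cilia are microtubule-based projections of the cell surface. Motile cilia, which sweep mucus along the airways, carry an axoneme in which dynein arms slide the outer doublet microtubules, tektins line the doublets from inside, and radial spokes link them to the central pair. FOXJ1 is the transcription factor that switches on the motile cilium genes in multiciliated airway cells. Intraflagellar transport (IFT) trains and the BBSome carry cargo along motile and primary cilia alike, and primary cilia are present on many other lung cells.

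RNA was taken from whole lung of male, wild-type Sprague Dawley rats of 250 to 350 g, and 6 ug of it was labelled for each of 12 Affymetrix arrays. The 4 groups held 3 arrays each. BD rats were brought to brain death by a 4 Fr balloon catheter inflated outside the dura. SEW rats received 0.1 mg/kg of SEW-2871, an agonist of the S1P1 receptor, by vein. BD/SEW rats received the same dose 15 min after brain death, and sham rats were the controls. The labels do not say whether SEW rats had the sham operation, and they do not number the animals, so p-values measure the spread between arrays. The comparisons ask what brain death and the agonist, alone or together, change in the lung. In whole lung, fewer ciliated cells and less RNA per cell cannot be told apart.

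All values are log2 signals as deposited, and a difference of 1 is a 2-fold difference. Differences are log2 fold changes with their standard error (SE) from limma, and a probe set was called at an adjusted p under 0.05, adjusted over all 31042 probe sets. Array medians lay between 7.34 and 7.41, and no depth applies to arrays. The alveolar markers Sftpc (14.32 to 14.67) and Ager (12.44 to 13.5) were high in all 12 arrays, as was the club cell gene Scgb1a1 (14.48 to 14.87). Of the multiciliated cell markers outside the gene set, Tppp3 lay between 11.94 (sham replicate 2) and 12.76 (SEW replicate 3), with SEW replicate 1 at 12.12. Ccdc40 lay between 6.61 (SEW replicate 1) and 7.36 (sham replicate 3). The others named for the check (Ccdc39, Hydin, Sntn and Pifo) had no probe set annotated with their symbol alone. Transcripts of other tissues differed between arrays. The mean of 23 cardiac muscle markers was 6.47 to 11.14 in BD, 6.23 to 7.59 in SEW, 6.35 to 8.13 in BD/SEW and 9.33 to 10.23 in sham. SEW replicate 2 had a heat shock gene mean of 12.4, against 10.31 to 10.62 in the other 11 arrays. Sham replicate 3 had the lowest array weight (0.228) and SEW replicate 2 the next lowest (0.387).

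The promoters of 4 members are shown because the RFX transcription factors, which act with FOXJ1 on cilium genes, bind a known motif with the core GTTGCC. The sequences are the 250 bases before the annotated gene start in RefSeq, assembly GRCr8. Capitals mark GTTGCC or its reverse complement GGCAAC. Tekt1 encodes a tektin and lies on the minus strand (chr10:57479122-57479371). Dnah2 encodes an inner dynein arm heavy chain, also on the minus strand (chr10:54766027-54766276). Ift88 encodes an IFT-B subunit on the plus strand (chr15:35688737-35688986). Spag9, on the plus strand (chr10:79440127-79440376), is the member with a called difference between BD/SEW and SEW, and this window holds neither form.
Tekt1: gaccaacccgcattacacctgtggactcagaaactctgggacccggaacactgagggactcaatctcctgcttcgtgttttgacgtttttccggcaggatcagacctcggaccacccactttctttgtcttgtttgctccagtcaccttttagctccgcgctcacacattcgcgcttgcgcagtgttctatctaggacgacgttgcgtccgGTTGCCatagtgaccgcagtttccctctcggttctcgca
Dnah2: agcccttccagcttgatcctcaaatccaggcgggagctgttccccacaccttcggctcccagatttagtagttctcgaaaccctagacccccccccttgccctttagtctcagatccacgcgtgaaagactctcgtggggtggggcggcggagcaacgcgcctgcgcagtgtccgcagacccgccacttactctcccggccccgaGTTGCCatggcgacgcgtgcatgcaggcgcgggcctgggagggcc
Ift88: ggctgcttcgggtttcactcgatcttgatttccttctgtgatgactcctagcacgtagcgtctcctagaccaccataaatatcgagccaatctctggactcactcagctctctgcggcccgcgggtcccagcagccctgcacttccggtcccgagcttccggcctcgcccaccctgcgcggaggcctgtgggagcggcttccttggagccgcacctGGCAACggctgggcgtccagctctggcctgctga
Spag9: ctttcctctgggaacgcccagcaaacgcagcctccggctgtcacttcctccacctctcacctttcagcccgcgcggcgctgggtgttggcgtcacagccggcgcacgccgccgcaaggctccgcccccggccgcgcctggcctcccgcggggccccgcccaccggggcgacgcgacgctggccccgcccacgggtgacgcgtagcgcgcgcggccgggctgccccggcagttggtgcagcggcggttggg
The core began 39 bases before the start of Tekt1, 45 bases before that of Dnah2 and 34 bases before that of Ift88. Over both strands it stood in 15 of the 56 member genes with a promoter entry (26.8%), against 10.8% of the 27457 genes in the table. Those 15 genes were Bbs5, Cfap144, Cfap161, Cfap20, Cfap20dc, Cfap298, Cfap69, Cfap90, Dnah2, Ift27, Ift81, Ift88, Spag4, Tekt1 and Tekt2. Of the 16 genes with an entry that encode dynein arm, tektin or radial spoke proteins, 3 held the core (Dnah2, Tekt1 and Tekt2). The printed windows with the core are examples that carry it, and most member genes with an entry did not. The forkhead motif TGTTTAC, searched apart from the first and on both strands, stood in 2 of the 56 (3.57%), Cfap20 and Tekt3, against 3.54% of all genes. A match is only a description of these letters.

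Foxj1 had log2 signals of 9.22, 9.70 and 9.69 in BD, 8.61, 9.91 and 9.94 in SEW, 9.58, 9.68 and 9.67 in BD/SEW, and 9.80, 9.60 and 10.69 in sham. The lowest value belonged to SEW replicate 1 and the highest to sham replicate 3, and the range of every group overlapped that of sham. Group means were 9.54 ± 0.27 in BD, 9.49 ± 0.76 in SEW, 9.64 ± 0.06 in BD/SEW and 10.03 ± 0.58 in sham (SD, n = 3 each). In order, SEW was lowest, then BD, BD/SEW and sham, and no neighbours in that order differed beyond their spread. Against sham, Foxj1 differed by -0.49 ± 0.35 in BD (limma adjusted p = 0.681), by -0.54 ± 0.35 in SEW (limma adjusted p = 0.387) and by -0.39 ± 0.35 in BD/SEW (limma adjusted p = 0.661). It passed in no comparison.

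Many members had their extremes on few arrays. Within its group, SEW replicate 1 was the lowest array in 60 of 88 members (68.2%), against 27.5% of all probe sets, and sham replicate 3 was the highest of its group in 61 (69.3%), against 47.3% of all probe sets. The mean of 22 motile members (Foxj1, dynein arms, tektins and radial spokes) was 7.37, 7.54 and 7.68 in BD, 7.11, 7.68 and 7.99 in SEW, 7.52, 7.69 and 7.62 in BD/SEW, and 7.54, 7.6 and 7.94 in sham. SEW thus held both the lowest and the highest of the 12 arrays, while the 3 BD/SEW arrays lay within 0.17 of each other. Of the 88 members, 40 (45.5%) were lowest in SEW replicate 1, where 7.17% of all probe sets were lowest. The highest value fell in SEW replicate 3 or sham replicate 3 for 64 members (72.7%), against 25.6% of all probe sets. SEW replicate 1 lay more than 2-fold below SEW replicate 3 in 32 members (36.4%), against 0.992% of all probe sets. The median range within a group was 0.27 in BD, 0.68 in SEW, 0.19 in BD/SEW and 0.43 in sham for members, and 0.24, 0.27, 0.19 and 0.28 in those same groups for all probe sets. In 84 of 88 members the widest range inside one group exceeded the range of the 4 group means, as it did in 25368 of all 31042 probe sets.

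**Figure D1:**
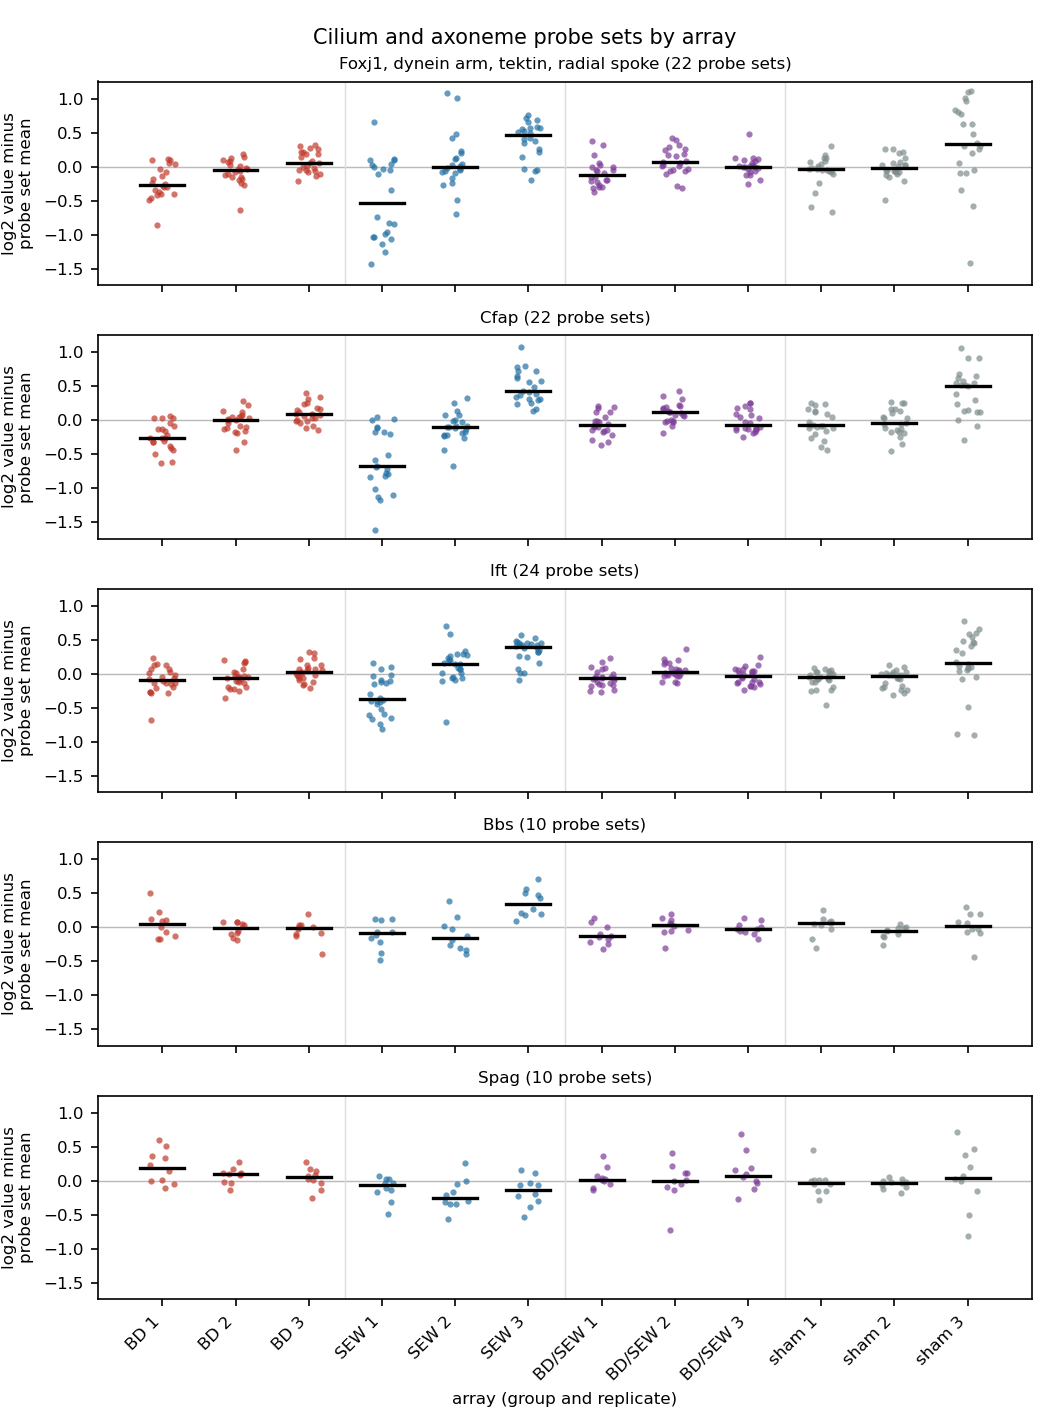
Each point is 1 probe set on 1 array, as its log2 signal less its own mean over the 12 arrays, and each black line is the median of the panel on that array. The arrays run from BD through SEW and BD/SEW to sham. In the panels of motile, Cfap and Ift members, SEW replicate 1 lies low and SEW replicate 3 and sham replicate 3 lie high, and the Spag panel lacks this pattern.

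Airway secretory genes were also low in SEW replicate 1. The mean of 18 airway secretory markers was 8.66, 10.03 and 9.28 in BD, 7.88, 8.88 and 9.26 in SEW, 8.44, 8.46 and 8.81 in BD/SEW, and 9.97, 9.92 and 10.08 in sham, so SEW replicate 1 had the lowest value and sham replicate 3 the highest. The secretoglobin gene Scgb3a1 measured 7.20, 12.43 and 12.41 in SEW and 13.65, 13.51 and 13.96 in sham. Basal cell markers (9 genes) had means of 5.88 to 7.08 in BD, 5.77 to 5.95 in SEW, 5.59 to 5.80 in BD/SEW and 6.41 to 6.95 in sham. With the airway secretory mean as a covariate, the median member difference was 0.09 for BD against sham, 0.28 for SEW against sham, 0.20 for BD/SEW against BD and 0.28 for BD/SEW against sham. Every sham array had a higher secretory mean than any SEW or BD/SEW array. The adjusted differences of SEW and BD/SEW from sham therefore rest on extrapolation. The part of airway content in the array pattern was not tested further.

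Among the dynein arm members, the heavy chain genes Dnah2 and Dnah7 and the intermediate chain gene Dnai1 were, as Foxj1, lowest in SEW replicate 1 and highest in sham replicate 3, while the heavy chain gene Dnah17 was not. Dnah7, an inner arm heavy chain, measured 8.11, 8.28 and 8.54 in BD, 7.10, 7.87 and 9.12 in SEW, 8.16, 8.74 and 8.10 in BD/SEW, and 8.32, 8.42 and 9.47 in sham. Dnah2 measured 6.83, 7.09 and 6.91 in BD, 6.14, 6.88 and 7.65 in SEW, 6.83, 7.37 and 7.21 in BD/SEW, and 7.16, 7.32 and 8.09 in sham, and its BD arrays all lay below its sham arrays. Its difference between BD and sham was -0.58 ± 0.34, the widest fall of any member in that comparison, and it did not pass (limma adjusted p = 0.592). Dnai1, an outer arm intermediate chain, measured 7.68, 8.27 and 8.26 in BD, 7.23, 8.03 and 8.59 in SEW, 7.93, 8.01 and 8.09 in BD/SEW, and 8.03, 8.10 and 8.71 in sham. Dnah17, an outer arm heavy chain known from human and mouse sperm, stayed between 5.61 and 5.76 on all arrays, near the lower quartile of the array (5.56 to 5.66). The brightest Dnal1 probe set, for an outer arm light chain, measured 9.15, 9.16 and 9.42 in BD/SEW and 9.39, 9.92 and 9.66 in SEW (-0.41 ± 0.14, limma adjusted p = 0.102). These ranges overlapped. Without SEW replicate 1 it passed (-0.55, limma adjusted p = 0.0319).

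Radial spoke head gene Rsph1 measured 8.14, 8.53 and 8.77 in BD, 7.08, 8.43 and 9.08 in SEW, 8.45, 8.60 and 8.64 in BD/SEW, and 8.49, 8.37 and 9.61 in sham. Rsph9, also of the spoke head, spanned 8.85 to 10.13 within SEW and 9.47 to 10.38 within sham. Both were lowest in SEW replicate 1 and highest in sham replicate 3. By contrast the second Rsph10b probe set (5.91 to 6.11) and Rsph6a, a spoke protein known from mouse sperm (6.37 to 6.58), varied little over the 12 arrays. None of the 6 radial spoke probe sets passed in any of the 6 comparisons.

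The 22 Cfap probe sets (cilia and flagella associated proteins) covered inner proteins of the doublets, assembly factors of the dynein arms and genes with roles outside motile cilia. Cfap161, a protein found inside the doublets of bovine cilia, had the widest range of these, at 7.45, 8.15 and 8.42 in BD, 6.47, 8.16 and 8.80 in SEW, 8.06, 8.24 and 8.11 in BD/SEW, and 7.96, 8.11 and 8.99 in sham. Cfap100, known from the Chlamydomonas flagellum, spanned 6.05 to 8.30 within SEW alone. The Cfap144 probe sets, at means of 11.22 and 10.84, rose and fell together over the arrays (r = 0.94, n = 12). The dimmest, Cfap276, averaged 5.66, close to the array's lower quartile. Cfap410, which acts at the base of primary cilia, behaved differently, with 6.55, 6.46 and 6.55 in BD, 6.65, 6.54 and 6.78 in SEW, 6.83, 6.83 and 6.82 in BD/SEW, and 6.56, 6.47 and 6.64 in sham. Its BD/SEW arrays lay above every array of the other groups, by 0.31 ± 0.09 against BD (limma adjusted p = 0.992) and 0.27 ± 0.09 against sham (limma adjusted p = 0.186).

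The 24 Ift probe sets cover subunits of the IFT-A and IFT-B complexes. The median difference of SEW replicate 1 from SEW replicate 3 was -0.76 for Ift, -1.09 for Cfap and -1.16 for the motile members. It was smaller for the 10 Bbs probe sets (-0.38), and near 0 for the 10 Spag probe sets (0.05) and for all probe sets (0.03). Among the motile members it was -1.33 for dynein arms and -1.16 for radial spokes, but only -0.17 for the 6 tektin probe sets. Ift172, an IFT-B subunit, measured 8.39, 8.63 and 8.66 in BD, 8.16, 8.69 and 9.10 in SEW, 8.61, 8.85 and 8.69 in BD/SEW, and 8.63, 8.68 and 9.02 in sham. Ift88 measured 8.42, 8.15 and 8.26 in BD, 7.95, 8.49 and 8.88 in SEW, 8.10, 8.41 and 8.21 in BD/SEW, and 8.44, 8.38 and 8.49 in sham. Both were lowest in SEW replicate 1 and highest in SEW replicate 3. Ift52, with the highest mean of the Ift probe sets, ran from 9.68 to 10.17, and the dimmest Ift25 probe set from 3.75 to 3.98. Of the BBSome and chaperonin genes, Bbs9 ran from 8.45 to 8.91 and Bbs12 from 4.80 to 5.30.

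Brain death alone left every cilium and axoneme gene short of the threshold. In BD against sham, 0 of 88 members were called, where 0.432% of all probe sets were called by limma, and 4 members had an unadjusted p under 0.05 (all probe sets, 10.4%). The members were higher in 32 cases and lower in 56, with a median of -0.11, against 0.02 for all probe sets. The median was -0.23 for motile members, -0.15 for Cfap, -0.13 for Ift, -0.01 for Bbs and 0.07 for Spag. BD and sham arrays did not overlap in 14 members (15.9%), against 15.2% of all probe sets. The smallest p belonged to Spag9, at 11.08, 10.84 and 10.53 in BD and 10.52, 10.39 and 10.07 in sham (0.49 ± 0.15, limma adjusted p = 0.244). It was followed by Tekt5l1 (0.19 ± 0.07, limma adjusted p = 0.346), a second Spag9 probe set (0.51 ± 0.20, limma adjusted p = 0.381), the IFT-B gene Ift22 (0.25 ± 0.11, limma adjusted p = 0.456) and Spag5, which encodes a spindle protein (-0.27 ± 0.13, limma adjusted p = 0.508). Without sham replicate 3 the median was 0.01.

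The agonist without brain death gave 1 call, a higher signal of Tekt5, a tektin known from rat sperm flagella. In SEW against sham, 1 of 88 members was called, where 2.71% of all probe sets were called, and 7 had an unadjusted p under 0.05 (all probe sets, 21.9%). Tekt5 measured 7.04, 6.80 and 6.79 in SEW (6.88 ± 0.14, SD, n = 3) and 6.00, 6.40 and 6.04 in sham (6.15 ± 0.22), without overlap. The difference was 0.73 ± 0.16 (limma adjusted p = 0.0408). Its BD arrays were at 5.89, 5.74 and 6.28 and its BD/SEW arrays at 6.76, 6.44 and 6.39, so both groups given SEW-2871 lay above BD on every array. The call was kept in 3 of 12 fits with an array left out (adjusted p 0.0329 to 0.109), those without sham replicate 2, BD replicate 2 or BD replicate 3. It was lost with BD replicate 2, SEW replicate 2 and sham replicate 3 left out together (0.72, limma adjusted p = 0.0954), with the SEW and sham arrays fitted alone (0.73, limma adjusted p = 0.0949), with the cardiac mean as a covariate (0.49, limma adjusted p = 0.437) and with the airway secretory mean as a covariate (0.48, limma adjusted p = 0.621). Both of these means were lower on every SEW array than on any sham array, so both covariate fits rest on extrapolation. Over the members as a whole, 38 were higher and 50 lower, with a median of -0.05 against 0.01 for all probe sets. SEW and sham did not overlap in 9 members (10.2%), against 24.7% of all probe sets.

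Other members with small p in SEW against sham were not called. The dimmer Ift46 probe set was at 7.62, 8.16 and 7.93 in SEW and 7.42, 7.48 and 6.57 in sham (0.75 ± 0.22, limma adjusted p = 0.0939). Spag5 was at 5.31, 5.03 and 5.12 in SEW and 5.79, 5.37 and 5.55 in sham (-0.42 ± 0.13, limma adjusted p = 0.105). Neither overlapped between the groups. A dimmer Bbs1 probe set differed by 0.41 ± 0.14 (limma adjusted p = 0.136) and a dimmer Dnal1 probe set by 0.67 ± 0.24 (limma adjusted p = 0.147).

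After brain death, the agonist made no difference that passed. In BD/SEW against BD, 0 of 88 members were called, where 0.0129% of all probe sets were called by limma, and 3 members had an unadjusted p under 0.05 (all probe sets, 4.95%). The members split evenly, with 43 higher, 44 lower and 1 equal, and the median was 0.00, against -0.01 for all probe sets. The 3 were Tekt5 (0.56 ± 0.16, limma adjusted p = 0.967), Cfap410 and Tekt3. Tekt3, which encodes a tektin of cilia and sperm flagella, was at 7.46, 7.56 and 7.63 in BD/SEW and 6.85, 6.87 and 7.08 in BD (0.62 ± 0.20, limma adjusted p = 0.992). The arrays of BD/SEW and BD did not overlap in 10 members (11.4%), as in 11.4% of all probe sets.

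Spag9 was the member with the firmest difference. In BD/SEW against SEW, 1 of 88 members was called, where 7.08% of all probe sets were called. Spag9 (probe set 1382020_at) measured 10.93, 10.98 and 11.02 in BD/SEW (10.98 ± 0.05, SD, n = 3) and 10.26, 10 and 10.18 in SEW (10.15 ± 0.13), without overlap. It was higher by 0.83 ± 0.15 (limma adjusted p = 0.00699), and the call held in 12 of 12 fits with an array left out (adjusted p 0.00342 to 0.0322). Spag9 encodes JIP4, a scaffold for JNK and p38 kinases and for motor proteins on vesicles, and is no part of the axoneme. Its other 3 probe sets were not called. The brightest, 1388520_at, was at 11.98, 11.89 and 11.74 in BD/SEW and 11.68, 11.48 and 11.71 in SEW (0.25 ± 0.13, limma adjusted p = 0.327). Probe set 1394436_at differed by 0.45 ± 0.33 (limma adjusted p = 0.488) and 1397618_at by 0.03 ± 0.20 (limma adjusted p = 0.962). All 4 differences were positive, and their sizes ran from 0.03 to 0.83. Neutrophil marker genes moved with this comparison, with 10 of 10 higher in BD/SEW and a list mean of 11.32 to 11.71 in BD/SEW against 9.26 to 10.77 in SEW. Their part in the Spag9 result was not tested.

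**Figure D2:**
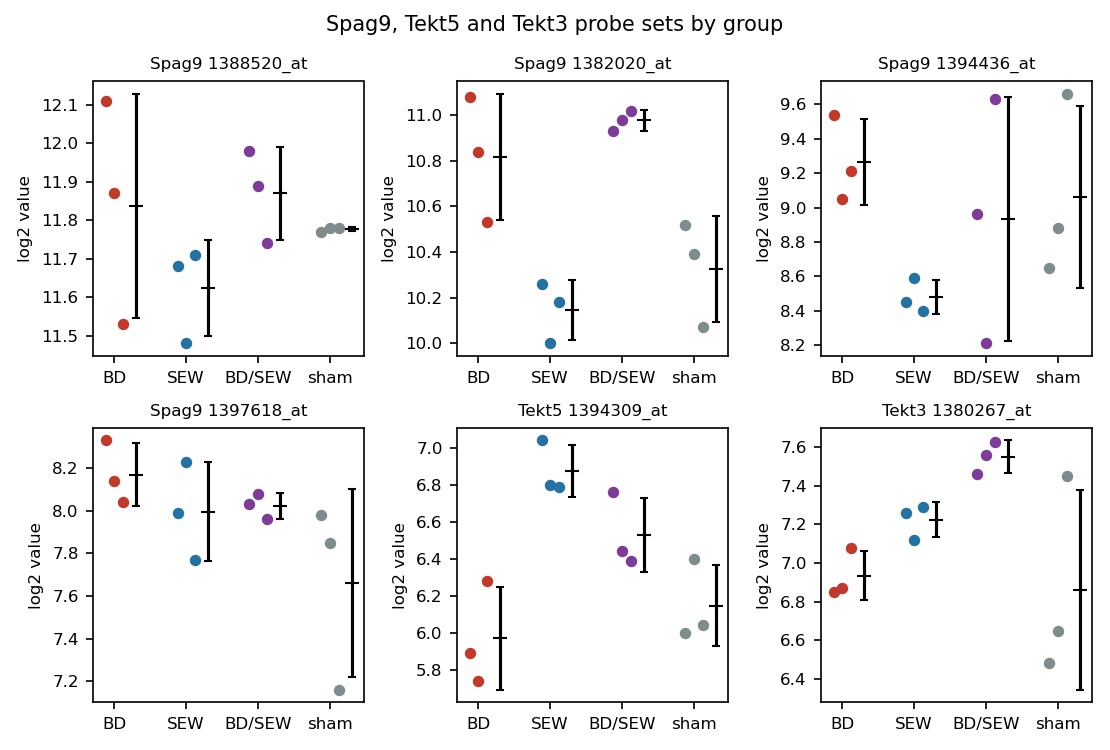
Log2 signal of the 4 Spag9 probe sets, Tekt5 and Tekt3 on each array (points), with the group mean and SD beside them (n = 3). Groups run from BD, SEW and BD/SEW to sham, and each panel has its own axis, which does not start at 0. For 1382020_at the BD/SEW arrays lie between 10.93 and 11.02, above all SEW and sham arrays, and for Tekt5 the SEW arrays lie between 6.79 and 7.04, above all sham arrays.

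Over all members in BD/SEW against SEW, 49 were higher and 38 lower, and the median was 0.03, against 0.00 for all probe sets. In 11 members (12.5%) the arrays did not overlap, against 29.1% of all probe sets, and 5 had an unadjusted p under 0.05 (all probe sets, 20.8%). The median turned to -0.17 without SEW replicate 1, the array with the low axoneme signals. Ift46, an IFT-B gene, was at 8.85, 9.0 and 8.87 in BD/SEW and 9.07, 9.26 and 9.37 in SEW (-0.33 ± 0.11, limma adjusted p = 0.0972). The dimmest Dnal1 probe set differed by -0.69 ± 0.24 (limma adjusted p = 0.125), and it passed without SEW replicate 1 (-0.97, limma adjusted p = 0.0222). The dimmer Bbs1 probe set differed by -0.32 ± 0.14 (limma adjusted p = 0.239).

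Brain death and the agonist together, set against sham, gave no call without the replicate number as a block and 1 call, Spag9, with it. With the block, 1.98% of all probe sets were called. Without it, 0 of 88 members were called in BD/SEW against sham, where 1.63% of all probe sets were called by limma. Of the members, 5 had an unadjusted p under 0.05 (all probe sets, 15.2%). Spag9 1382020_at was higher on every BD/SEW array than on any sham array (0.65 ± 0.15, limma adjusted p = 0.0584). Arrays of BD/SEW and sham with the same replicate number deviated together (correlations of 0.17, 0.22 and 0.33), and with that number as a block Spag9 passed (limma adjusted p = 0.0436). It was also called without BD replicate 1 (adjusted p = 0.0493) or BD replicate 3 (adjusted p = 0.0451). Tekt3 was at 7.46, 7.56 and 7.63 in BD/SEW and 6.48, 6.65 and 7.45 in sham (0.69 ± 0.20, limma adjusted p = 0.127). Sham replicate 3 stood close to the BD/SEW arrays, and without it Tekt3 passed (0.99, limma adjusted p = 0.00515). Tekt5 differed by 0.38 ± 0.16 (limma adjusted p = 0.295) and the brightest Dnal1 probe set by -0.31 ± 0.14 (limma adjusted p = 0.315). The members were higher in 33 cases and lower in 55, with a median of -0.07, against 0.00 for all probe sets. The groups did not overlap in 13 members (14.8%), against 22.3% of all probe sets. The comparisons against sham share the sham arrays and are not independent of each other.

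The interaction, the brain-death difference with the agonist less that without it, called 0 of 88 members, where 0.451% of all probe sets were called by limma, and 2 members had an unadjusted p under 0.05 (all probe sets, 10.9%). A dimmer Dnal1 probe set had the smallest p (-0.89 ± 0.35, limma adjusted p = 0.382), followed by Spag5 (0.45 ± 0.19, limma adjusted p = 0.413) and a dimmer Ift46 probe set (-0.62 ± 0.32, limma adjusted p = 0.506). A further Dnal1 probe set (-0.98 ± 0.52, limma adjusted p = 0.523) and Ift22 (-0.28 ± 0.16, limma adjusted p = 0.549) came next. The interaction of Foxj1 was 0.65 ± 0.49 (limma adjusted p = 0.654). Medians were 0.06 for members, 0.26 for motile members and -0.03 for all probe sets.

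**Figure D3:**
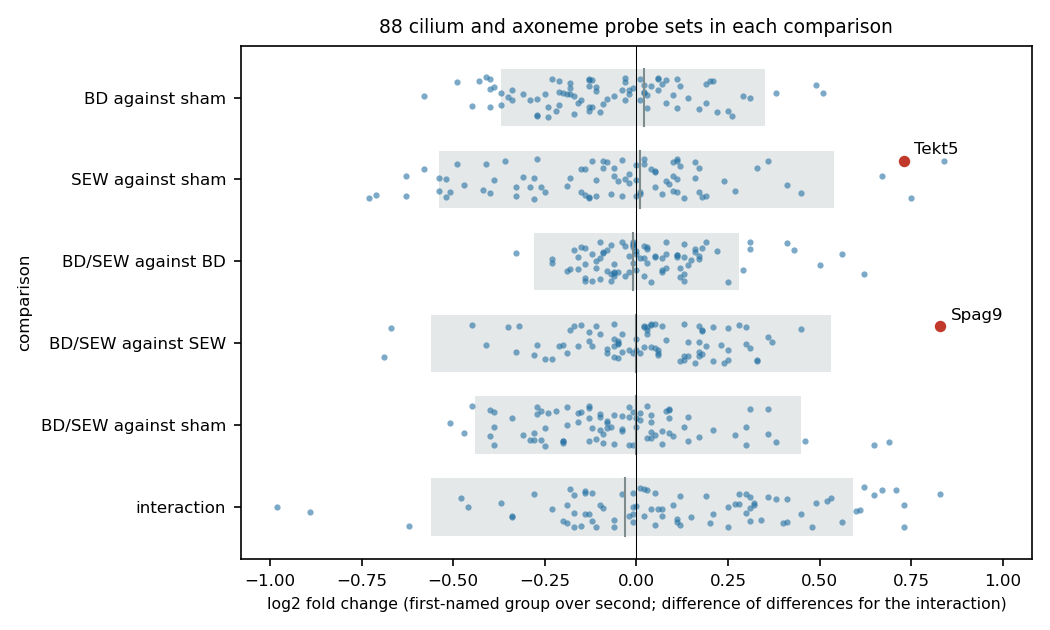
Log2 fold change of each of the 88 probe sets (points) in the 6 comparisons, with the called probe sets in red. The grey bars span the 5th to 95th percentile of all 31042 probe sets and the grey line is their median. Most members lie inside the grey bars, and the called points are Tekt5 at 0.73 in SEW against sham and Spag9 at 0.83 in BD/SEW against SEW.

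Across the 12 arrays, many axoneme genes followed Foxj1. Of 87 relations with the Foxj1 signal, 34 positive ones and 1 negative one passed (Pearson's r, permutation test with 100000 resamples, two-sided, Benjamini-Hochberg over 87). With Spearman's rho 8 positive ones passed. Relations with Foxj1 were not computed outside the members, so no share over all probe sets stands beside these counts. By role, 13 of 22 Cfap, 11 of 24 Ift, 10 of 21 other motile, 0 of 10 Bbs and 0 of 10 Spag probe sets passed with a positive r. The median r was 0.77 for Cfap, 0.67 for the motile members, 0.59 for Ift, 0.16 for Bbs and 0.08 for Spag. Among the motile members it was 0.79 for dynein arms, 0.77 for radial spokes and 0.13 for tektins. Rsph1 had r = 0.95 (permutation p = 0.00032, adjusted p = 0.0039) and rho = 0.72 (permutation p = 0.01, adjusted p = 0.059). Ift70b, an IFT-B gene, had r = 0.90 and rho = 0.96, each at the smallest p the permutations can give (1e-05, adjusted p = 0.00087). Dnah17 was the negative one (r = -0.69, permutation adjusted p = 0.017) at a signal near the lower quartile.

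These relations leaned on the arrays that stand apart. The arrays farthest from the median of Foxj1 were SEW replicate 1 and sham replicate 3. Without them the median r was 0.42, against 0.53 with them, and 34 relations had r above 0.5, against 45. Over the remaining 10 arrays r was 0.70 for Rsph1, 0.81 for Ift70b, 0.66 for Tekt1, 0.33 for Dnah7 and 0.47 for Dnah2. With each array taken as its deviation from its group mean, the median r was 0.63. The Bbs and Spag probe sets gave a median of 0.22 and -0.12 by that measure, against 0.81 for Cfap and 0.76 for Ift. All relations were read on the same 12 arrays. The airway secretory mean was also lowest in SEW replicate 1 (7.88) and highest in sham replicate 3 (10.08). It differed elsewhere, with the other sham arrays at 9.97 and 9.92, BD replicate 2 at 10.03 and SEW replicate 3 at 9.26.

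**Figure D4:**
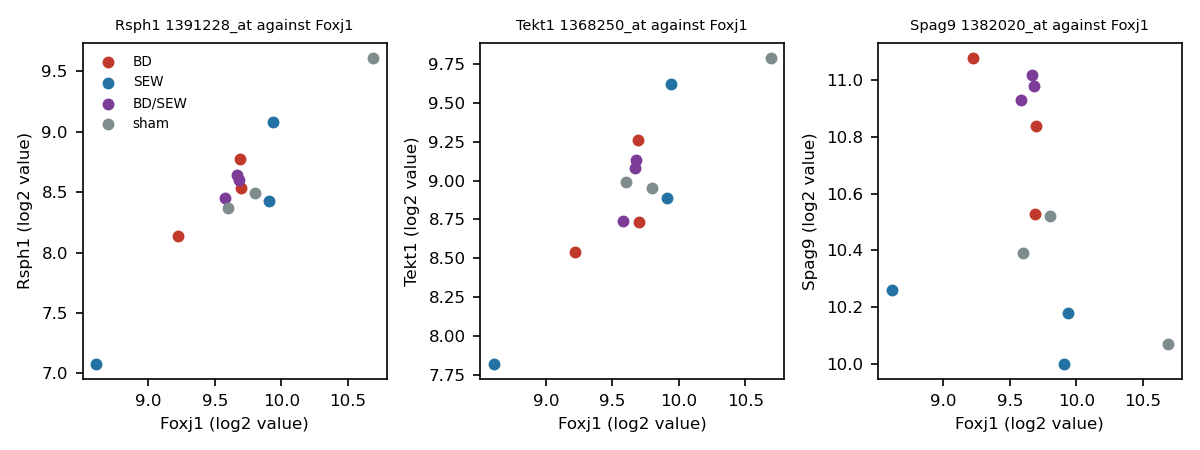
Log2 signal of Rsph1, Tekt1 and Spag9 (1382020_at) on each array against that of Foxj1, coloured by group. For Rsph1 and Tekt1 the SEW array with the lowest Foxj1 signal (8.61) and the sham array with the highest (10.69) lie at the ends of a rising line. Spag9 shows no rising line (r = -0.32 over the 12 arrays, and -0.72 without these 2 arrays).

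Outside the gene set, the probe sets most like the mean of the motile members over the 12 arrays were chosen by Pearson's r and are described without a test. Tmem107, a transition zone gene, had r = 0.984, and Cdkl4 had 0.974 and 0.965 on its probe sets. Zcchc12 and Kndc1 (0.962 each), the inner arm dynein light chain gene Dnali1 (0.96), Dynlrb2 of cytoplasmic dynein (0.956), Ccdc65 of the nexin-dynein regulatory complex (0.954), Riiad1 (0.953) and Lrrc51 (0.949) followed. Each of these 10 probe sets was lowest in SEW replicate 1 and highest in SEW replicate 3 or sham replicate 3. The motile mean has the same extreme arrays, so this follows from the choice and adds nothing to it.

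A list of 45 measured motile cilium genes outside the symbol rule gave 0 calls in each of the 6 comparisons. They were lower in 39 of 45 genes in BD against sham (median -0.19), in 37 in SEW against sham (-0.23) and in 37 in BD/SEW against sham (-0.09). Of all 31042 probe sets, 13988, 15140 and 15243 were lower in these comparisons. The genes were read on the same arrays, so they are not independent. Their mean was 7.47 to 7.75 in BD, 7.03 to 8.09 in SEW, 7.58 to 7.82 in BD/SEW and 7.66 to 8.15 in sham, so SEW again spanned the widest range. The 7.03 belonged to SEW replicate 1 and the 8.15 to sham replicate 3, with the other sham arrays at 7.66 and 7.68. Among 19 ciliogenesis regulators, 1 passed in BD/SEW against SEW, where 7.08% of all probe sets were called, and 0 in the other 5 comparisons by limma. Gmnc, which starts the multiciliated cell programme, averaged 5.30 in BD/SEW, against 6.03 in SEW (-0.73 ± 0.19, limma adjusted p = 0.0419). These signals lie near the lower quartile of all probe sets (5.62), where differences are uncertain. The RFX gene Rfx2 measured 6.67, 8.03 and 8.10 in SEW and 7.58, 7.59 and 7.94 in sham, with SEW replicate 1 lowest of the 12 arrays. Among 39 transition zone, BBSome-associated and trafficking genes, 1 passed in SEW against sham and in BD/SEW against SEW, where 2.71% and 7.08% of all probe sets were called. Trim32, a ubiquitin ligase also known as BBS11 in humans, averaged 8.99 in SEW and 8.10 in sham (0.89 ± 0.18, limma adjusted p = 0.0269). It averaged 8.31 in BD/SEW, lower than in SEW (-0.68 ± 0.18, limma adjusted p = 0.0399).

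Several genes were read by more than 1 probe set, and these did not always move together. The pairs of Cfap144 (r = 0.94), Cfap69 (0.93) and the brighter Ift81 probe sets (0.93) followed each other over the 12 arrays. In contrast, dimmer probe sets of Dnal1, Ift46, Ift122, Bbs1 and Ift81 were lowest in sham replicate 3, an array on which the brighter probe set of the same gene was not. The second Dnal1 probe set (1388299_at) was at 5.56 in sham replicate 3 and at 6.71 or more on the other arrays. The dimmer Ift46 probe set (1395984_at) was at 6.57 there and at 7.28 or more elsewhere, and that of Ift122 (1390245_at) at 5.26 and at 6.02 or more. The Ift122 probe sets had r = 0.03. For the dimmer Ift46 probe set, the difference between SEW and sham was 0.45 without sham replicate 3, and it was not called. The brighter Ift46 probe set differed by 0.24 ± 0.11 (limma adjusted p = 0.212) in that comparison, and the brightest Dnal1 probe set by 0.10 ± 0.14 (limma adjusted p = 0.698).

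**Figure D5:**
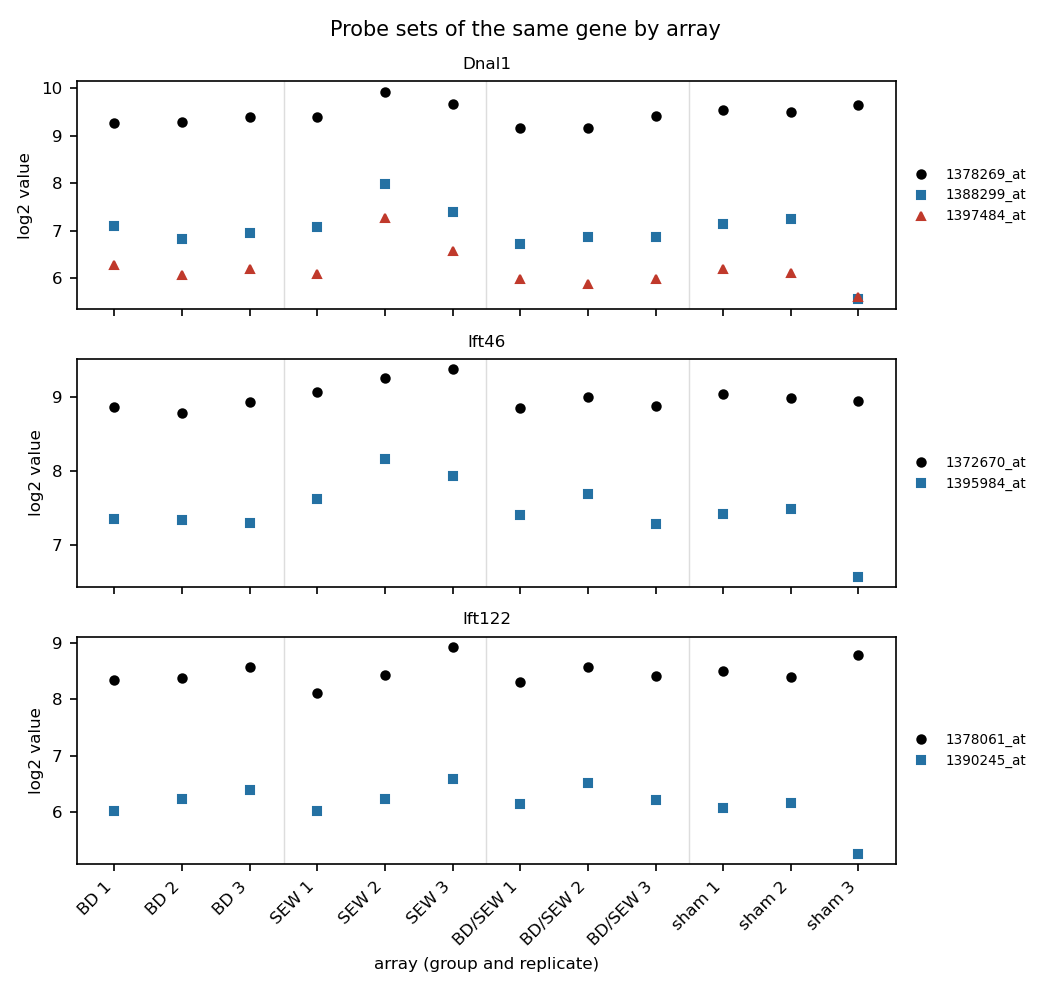
Log2 signal of each probe set of Dnal1, Ift46 and Ift122 by array, from BD through SEW and BD/SEW to sham, with 1 symbol per probe set. The dimmer probe sets drop on sham replicate 3 (to 5.56, 6.57 and 5.26 for 1388299_at, 1395984_at and 1390245_at), where the brightest probe set of each gene does not.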

How the data were processed

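Log2 signals per probe set, as deposited by the authors, were taken for 12 arrays of rat lung RNA, 3 per group. The submitters' processing notes list RMA, affy and MAS5, with neither versions nor the step that used each. Once sorted, no 2 arrays were more than 0.22 apart at the same rank. Scanner files were not used. The array annotation gave 1 gene symbol to 20826 of 31042 probe sets, several to 436 and none to 9780, and all 88 members matched RefSeq (GRCr8), from which promoters came. The members and gene lists were chosen with earlier results of these data known.

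All probe sets were fitted on the deposited log2 scale with limma 3.58.1 in R 4.3.3, with 1 mean per group over 12 arrays, moderated variances with a mean trend, two-sided tests and Benjamini-Hochberg adjustment over 31042 probe sets. The fit was tested on simulated data. The replicate numbers of the labels were checked as pairs by the correlation of deviations from group means, since the labels do not say what a number stands for. Only for BD/SEW and sham did all 3 pairs pass 0.1. The reported values of that comparison, as of the others, are unpaired. The block was a separate setting, fitted over all 12 arrays. Correlations were tested with 100000 permutations of the arrays in NumPy 2.4.6. Other settings were a block for the replicate number, array weights, 1 probe set per gene, a filter on dim probe sets, no mean trend, scaling to a common median, a second quantile normalization, the compared arrays only, a threshold of 0.01, a looser reading of the symbol rule (91 probe sets), each array left out, and, chosen after seeing the data, 3 arrays left out together (BD replicate 2, SEW replicate 2 and sham replicate 3) and a cardiac or airway secretory covariate. Named members are Foxj1, called probe sets, the 5 with the smallest p per comparison, and the brightest and dimmest of each group, while others shown for their array pattern were chosen after their values were seen. Lists outside the members took 1 probe set per gene, the one with the highest mean. The number of arrays limits the precision.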

Additional observations from a re-analysis of the deposited data

How the results depend on the processing

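Counts of called members in BD against sham, BD/SEW against BD and the interaction were 0 in every setting run. SEW against sham (1 at the reported setting) gave 2 with array weights (Tekt3 and Tekt5), 0 with the compared arrays only, 0 with the cardiac covariate, 0 with the airway secretory covariate, 0 at an adjusted p under 0.01, and 0 to 1 with an array left out, where the 1 was Tekt3 (higher) without sham replicate 3, Cfap299 (lower) without SEW replicate 3 and otherwise Tekt5. With 3 arrays left out together the 1 call was Tekt3, and Tekt5 was not called. BD/SEW against SEW (1) gave 6 with array weights, 0 with 1 probe set per gene, since another Spag9 probe set is brighter, and 1 to 3 with an array left out, with 2 without sham replicate 3 and 3 without SEW replicate 1. BD/SEW against sham (0) gave 6 with array weights, 1 with scaling to a common median (Spag9), 1 with 3 arrays left out together (Tekt3) and 0 to 1 with an array left out. All these counts are out of 88 members, except with 1 probe set per gene (68). Array weights also raised the calls over all probe sets, to 13.3% for BD/SEW relative to sham. The weighted shares were 13.2% for BD/SEW relative to SEW and 5.6% for SEW relative to sham. The gains with array weights were thus not particular to the members. The airway secretory covariate moved the median over members to 0.277 in BD/SEW against sham, to 0.28 in SEW against sham, to 0.198 in BD/SEW against BD, and to 0.092 for BD relative to sham. With an array left out, the median in BD/SEW against SEW ran from -0.174 to 0.172. With the airway secretory covariate, the difference of Foxj1 turned to 0.4 in SEW against sham (limma adjusted p = 0.786). It turned to 0.63 in BD/SEW against sham, and neither was called. That covariate did not overlap between sham and SEW or between sham and BD/SEW. These values, and the medians of the same comparisons with it, therefore rest on extrapolation. With an array left out, the Foxj1 difference ran from -0.05 to 0.19 in BD/SEW against BD and from -0.28 to 0.38 in BD/SEW against SEW. The causes were not tested beyond these settings. Other counts (126) and medians (132) moved by less than 1.5 times or by less than the spread of the member median within groups (0.185).

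Over 18 pairs of arrays with the same replicate number, the correlation of deviations from the group means ran from -0.15 to 0.41 and passed 0.1 in 8, among them all 3 pairs of BD/SEW and sham. In every comparison the labels give these arrays only a shared number. With the number as a block, BD/SEW against sham gave 1 call (Spag9, limma adjusted p = 0.0436), where 1.98% of all probe sets were called. The other comparisons kept their counts of 0 or 1. The fit on compared arrays only was not run for the interaction, which needs all 4 groups. Over the whole table, calls in SEW against sham were 840 at the reported setting, 239 with the compared arrays only and 1738 with array weights. Signal over background was not measured, and 8 members had a mean under the lower quartile of all probe sets (5.62), where differences are uncertain.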

Other observations

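Marker lists of other lung cells were measured on the same arrays. The share of all probe sets called was 7.08% in BD/SEW against SEW, 2.71% for SEW and 1.63% for BD/SEW when set against sham. Of 12 alveolar type 2 markers, 11 were higher in SEW against sham with 0 called and a median of 0.30, and 12 were higher in BD/SEW against sham with 1 called, the phospholipid enzyme gene Lpcat1 (0.72 ± 0.10, limma adjusted p = 0.00748). Of 11 alveolar type 1 markers, 11 were higher in BD/SEW against sham, and the called ones were Pdpn (0.50 ± 0.09, limma adjusted p = 0.0214) and Clic5 (0.59 ± 0.12, limma adjusted p = 0.0338). Of 14 endothelial markers, 3 were called higher in SEW against sham, with the transcription factor gene Sox18 at 1.62 ± 0.28 (limma adjusted p = 0.0157), and 2 were called lower in BD/SEW against SEW. Of 10 neutrophil markers, 4 were called higher in BD/SEW against SEW, among them the antimicrobial peptide gene Camp (3.73 ± 0.46, limma adjusted p = 0.000771). Of 13 heat shock genes, limma called 0 in each of the 6 comparisons.

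Of 18 airway secretory markers, 5 were higher and 13 lower in SEW against sham, with Bpifa1 and Muc4 called, and 6 were higher and 12 lower in BD/SEW against sham, with Bpifa1 and Muc5b called. Bpifa1, a secreted airway surface protein gene, averaged 8.59 in SEW, 7.31 in BD/SEW and 13.96 in sham, a difference of -5.37 ± 1.20 for SEW (limma adjusted p = 0.0402) and -6.66 ± 1.20 for BD/SEW (limma adjusted p = 0.0203). The mucin gene Muc4 averaged 4.37 in SEW and 4.80 in sham (-0.43 ± 0.09, limma adjusted p = 0.0366), both under the lower quartile of all probe sets (5.62). The mucin gene Muc5b averaged 8.27 in BD/SEW and 10.79 in sham (-2.52 ± 0.55, limma adjusted p = 0.0476). Of 9 basal cell markers, 1 was called lower in SEW against sham, Krt17 (-2.07 ± 0.45, limma adjusted p = 0.0364), and 1 lower in BD/SEW against SEW, the water channel gene Aqp3 (-2.41 ± 0.45, limma adjusted p = 0.00751). In SEW against sham, 1 of 23 cardiac markers (Tnnc1) and 4 of 17 adipose markers (Cidec, Thrsp, Adipoq and Plin1) were called lower, and their part in these airway results was not tested.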
